A study of Capra hircus with 8 samples.

Results

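Ribosome biogenesis genes encode the factors that make, fold, modify and cut the ribosomal RNA precursor in the nucleolus and assemble it with ribosomal proteins. They were taken from the deposited messenger RNA table by name: every gene whose name starts with RRP, UTP, NOP or NOL followed by a digit, plus BOP1, PES1, WDR12, FBL, DKC1, NCL, NPM1, RRS1, BYSL, TSR1 and NIP7. This rule found 45 of the 22107 entries of the table, and RefSeq lists all 45 as protein-coding genes of the goat (Capra hircus). The rule uses names alone and no measured value. It also takes in NOL3, which encodes an inhibitor of apoptosis, and NOL4 and NOL4L, for which no ribosome role is assigned here, and it leaves out factors that the table holds under an older symbol.

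The samples were goat embryos at the 8-cell stage, made either by in vitro fertilisation (IVF) or by cloning through somatic cell nuclear transfer (SCNT), where an egg is given a body cell nucleus in place of its own. There were 2 libraries per group, prepared from embryos lysed directly, with Smart-seq2 amplification of polyadenylated RNA. The labels name no breed, donor cell, treatment or culture detail beyond this, and they do not say whether replicates 1 and 2 were separate pools of embryos, so the p-values measure only the spread between these libraries. The series has 8 libraries, and the messenger RNA of its 4-cell embryos was not analysed here.

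The small ribosomal subunit is built inside a large particle called the small subunit processome, whose UtpA and UtpB complexes and U3 small nucleolar ribonucleoprotein (snoRNP) bind the nascent precursor. Other snoRNPs guide ribose methylation (box C/D) or pseudouridylation (box H/ACA), and a separate set of factors, among them the PeBoW complex, matures the large subunit. In mammals the early embryo begins with an egg's store of messenger RNAs and ribosomes, and its nucleoli become fully active in making ribosomal RNA around the time when the embryonic genome is switched on.

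The values are FPKM, fragments per kilobase of gene and per 1000000 fragments, so levels of different genes are compared per length. Steps between the lowest values gave scaling totals of 27499371 and 30345379 reads in IVF and 28397783 and 28519065 reads in SCNT, and all 45 members then came out as whole reads in every library. Counting intervals given here are exact 95% Poisson intervals and cover counting error only, since copies made by PCR cannot be told from separate molecules. Across the 10303 tested genes, the IVF libraries correlated at r = 0.96 and the SCNT libraries at r = 0.90. SCNT replicate 2 stood apart in the number of genes at 1 FPKM or more. It had 11025, against 9883 in SCNT replicate 1 and 8984 and 9038 in IVF. Of the 34 members that could be tested without it, 19 had a log2 difference that moved by over 1.5 times. Leaving out SCNT replicate 1 instead moves each log2 difference by an equal amount the other way, but not by an equal number of times. The count was not made without SCNT replicate 1, so it does not mark replicate 2 as the odd library. The sign changed for 7 of 34 members without SCNT replicate 1 and for 3 without SCNT replicate 2. Median centring moved 28 of 41 members by over 1.5 times. Values without SCNT replicate 2 are given beside most of the genes whose difference moved, and values after centring beside few. Of the oocyte and early embryo markers, all 8 found were above 0 in each library. They summed to 2481 and 2704 FPKM in IVF, against 3031 and 4218 FPKM in SCNT. Among them, GDF9 was at 509 and 404 FPKM in IVF, against 627 and 617 FPKM in SCNT. Of 8 cumulus and granulosa markers found, AMH and FSHR were listed at 0 in all 4 libraries, while 2 or 3 reached 1 FPKM in each library, among them HAS2 at 20.6 and 29.4 FPKM in IVF, against 17.9 and 18.1 FPKM in SCNT. In such bulk samples, fewer cells of a kind and less RNA per cell cannot be told apart.

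Levels of the 45 genes spread over more than 4 orders of magnitude, from BOP1 in IVF replicate 2, at 0.0139 FPKM and a single read, to NPM1 in IVF replicate 1, at 537 FPKM and 24522 reads. In IVF libraries, 31 and 33 members reached 1 FPKM, and in SCNT libraries 41 and 45. At 10 FPKM or more stood 19 and 20 members in IVF and 24 and 29 in SCNT. The median level of a member was 5.41 and 7.07 FPKM in the IVF libraries and 16.5 and 17.1 FPKM in the SCNT libraries. The summed level did not follow that order: it was 1910 and 1803 FPKM in IVF, against 2260 and 1766 FPKM in SCNT. The sum is carried by few genes, since NPM1, NCL and UTP11 together made up 49.97% and 49.5% of it in IVF, and 37.7% and 31.4% in SCNT.

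**Figure D1:**
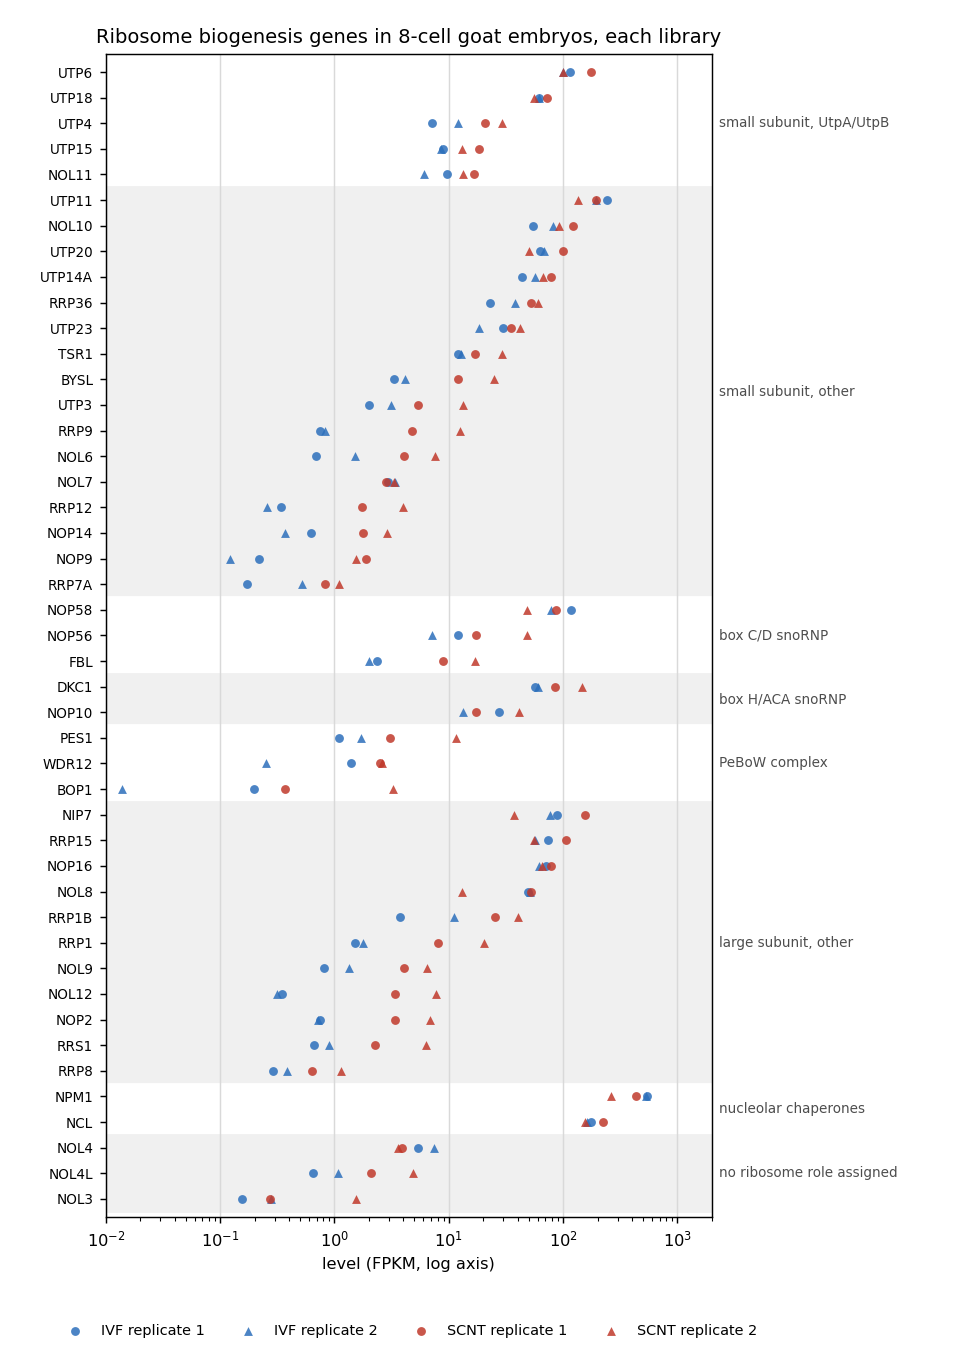
Level of each of the 45 genes in each library, in FPKM on a log axis, with IVF in blue, SCNT in red, replicate 1 as circles and replicate 2 as triangles, ordered within role groups by mean level. Members at low level in IVF, such as RRP9 and NOL12, have both red points to the right of both blue ones, while for abundant members such as NPM1 and NCL the points lie close together or in the other order.

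SCNT was compared with IVF with limma on log2(FPKM + 1), two-sided, with Benjamini-Hochberg adjustment over every tested gene, meaning each that reached 1 FPKM in 2 or more of the libraries. Log2 differences are SCNT minus IVF on that scale, which understates the ratio of genes at low level. Of the 45 members, 41 were tested, and 7 of these passed the filter through the SCNT libraries alone, against 962 of the 10303 tested genes. Such genes had to be higher in SCNT, and counts and medians over tested genes, here and below, include them. The 3 that passed the test at an adjusted p of 0.05, RRP1, NOL12 and RRP9, were all higher in SCNT, 38 did not pass and 0 fell. Over all tested genes, 3.86% were called, 3.02% higher and 0.844% lower, and 3 of 41 members is 7.32%, a share that rests on 3 genes and from which nothing is read. The split over all genes depended on scaling, with 158 higher and 238 lower after median centring and 121 higher and 150 lower after quantile normalization. Higher at an unadjusted p under 0.05 in limma were 19 members and 0 were lower, against 25.4% and 5.63% of all tested genes. All 7 members that passed the filter through SCNT alone are among the 19, so part of this count was fixed by the filter. The log2 difference was above 0 for 34 of the 41, against 65.8% of all tested genes. It was above 0 for 27 of 41 after median centring, against 46.1% of all tested genes, and for 31 after quantile normalization, against 49.7%.

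RRP9 encodes the protein of the U3 snoRNP that marks it off from other box C/D particles. It stood at 0.745 and 0.819 FPKM in IVF, against 4.81 and 12.5 FPKM in SCNT, from 33, 40, 220 and 574 reads. RRP9 passed the filter through SCNT alone, so both SCNT libraries had to exceed both IVF libraries. The counting intervals were 22.7 to 46.3 and 28.6 to 54.5 reads in IVF, against 191.9 to 251.1 and 528 to 622.9 reads in SCNT. They did not meet. RRP9 rose by 2.31 ± 0.51 (SE) on the log2 scale (limma, adjusted p = 0.0485).

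RRP1 encodes a nucleolar protein needed for large subunit RNA processing. Its level was 1.52 and 1.78 FPKM in IVF, against 8.10 and 20.5 FPKM in SCNT, and the groups did not overlap. The rise was 2.40 ± 0.53 (SE; limma, adjusted p = 0.0491). This was the largest log2 difference among the tested members as deposited, but NOL12 was larger with a pseudocount of 0.1 (3.601 against 2.90) and after rescaling to a common total (2.92 against 2.70). Its paralog RRP1B, which lies on the same chromosome with 3 genes between them in RefSeq order, stood at 3.71 and 11.1 FPKM in IVF, against 25.5 and 40.4 FPKM in SCNT. RRP1B had a log2 difference of 2.14 ± 0.55 and did not pass (limma, adjusted p = 0.0616). How the authors' counting treated reads that fit both paralogs is not given in the sources used here.

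NOL12, whose yeast counterpart is a nucleolar exonuclease that trims precursor RNA of the large subunit, was at 0.346 and 0.313 FPKM in IVF, against 3.36 and 7.73 FPKM in SCNT. These came from 24 reads in each IVF library and 241 and 557 reads in the SCNT libraries. NOL12 rose by 2.22 ± 0.45 (SE; limma, adjusted p = 0.0425). NOL12 and RRP9 are among the 7 members that passed the filter through SCNT alone and so had to differ in level between the groups.

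The 3 calls lay close to the threshold, and whether they were kept depended on the library left out and on the scaling. For RRP1, the log2 difference was 3.02 without SCNT replicate 1. None of the 41 tested members passed in limma without IVF replicate 1 (10 at an unadjusted p under 0.05) or without IVF replicate 2 (12 of 41), although the log2 differences of RRP9, NOL12 and RRP1 then lay between 2.197 and 2.48. Without either SCNT library, NOL12 and RRP9 did not reach the filter and were not tested. Without SCNT replicate 2, RRP1 had a log2 difference of 1.78 (limma, adjusted p = 0.0653) and none of the 34 members tested passed (14 at an unadjusted p under 0.05). Without SCNT replicate 1, the spread comes from the closer IVF pair alone. The median log2 difference was then 0.78 over the 34 tested members, against 0.37 over all tested genes. Scaling moved the median log2 difference of all tested genes from 0.39 as deposited to −0.10 after median centring and −0.01 after quantile normalization. With centring NOL12 alone kept its call, and with quantile normalization no member passed in limma (13 at an unadjusted p under 0.05). With each library rescaled to a total of 1000000, 11 of the 41 members passed, all higher, and RRP1, NOL12 and RRP9 were among them. Of all 10303 tested genes, 1327 passed after this rescaling, 1133 of them higher.

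**Figure D2:**
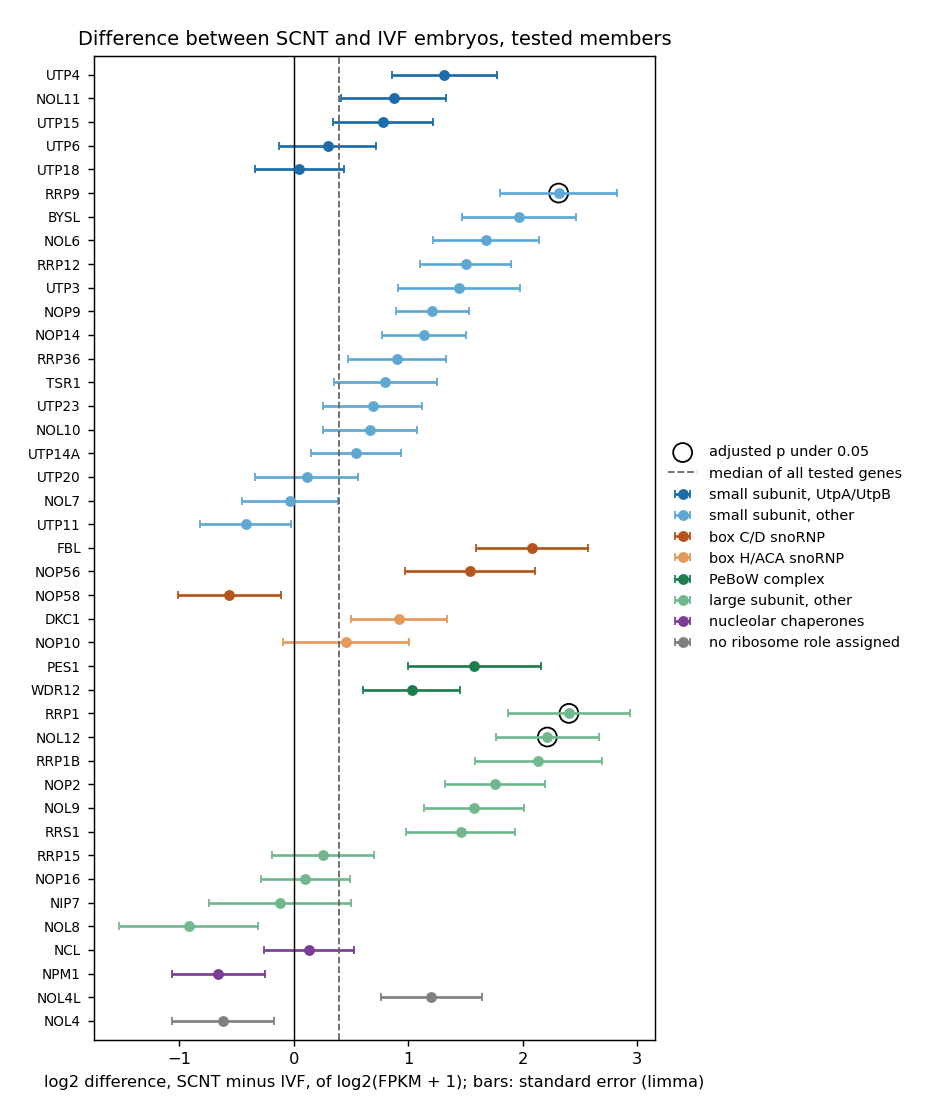
Log2 difference (SCNT minus IVF, of log2(FPKM + 1)) of the 41 tested members, with limma standard errors, coloured by role group; rings mark the 3 genes that passed, and the dashed line is the median of all tested genes, 0.39. RRP1, RRP9 and NOL12 lie furthest to the right and NOL8, at −0.92, furthest to the left.

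Counted over all 45 members, with no filter, the SCNT values both exceeded the IVF values for 30, below them for 2 (NPM1 and NOL4), and overlapped for 13. The 30 are 66.7% of the members, against 36.1% of all genes of the table. Among tested genes the shares were 46.9% above and 17.1% below, and among the 41 tested members 27 lay above and 2 below. After dividing each library by the median FPKM of its tested genes, the count was 24 of 45, against 25.8% of all genes. Leaving out a library can only keep or raise such a count: it was 38 without SCNT replicate 2 and 32 without SCNT replicate 1, against 45.9% and 54.0% of all genes. The median log2 difference of the tested members was 0.90 against 0.39 for all tested genes. It was 0.41 against −0.10 after median centring and 0.56 against −0.01 after quantile normalization.

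Of the 21 small subunit factors, RRP9 alone passed among 20 tested, 19 did not pass, and 16 of the 21 had both SCNT values above both IVF values, against 36.1% of all genes of the table. Among the 5 genes of UtpA and UtpB, which bind the first part of the precursor to be made, none passed and 1 had an unadjusted p under 0.05. UTP4 of the UtpA complex stood at 7.09 and 12.03 FPKM in IVF, against 20.6 and 29.3 FPKM in SCNT (log2 difference 1.32 ± 0.46 SE; limma, adjusted p = 0.103). UTP6 of UtpB, by contrast, was abundant and overlapped, at 115.4 and 99.2 FPKM in IVF, against 175 and 99.0 FPKM in SCNT; its log2 difference was 0.30, −0.20 after median centring and 0.70 without SCNT replicate 2.

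BYSL, which encodes a nucleolar factor of late small subunit maturation, was at 3.35 and 4.14 FPKM in IVF, against 12.1 and 25.1 FPKM in SCNT. Its groups did not overlap, and its log2 difference of 1.97 ± 0.50 (SE) missed the threshold (limma, adjusted p = 0.0593). NOL6, a processome protein whose yeast counterpart is Utp22, was at 0.683 and 1.501 FPKM in IVF, against 4.08 and 7.53 FPKM in SCNT (1.68 ± 0.47; limma, adjusted p = 0.0660). TSR1, a GTPase-like protein of cytoplasmic small subunit precursors, was at 12.1 and 12.7 FPKM in IVF, against 17.0 and 29.4 FPKM in SCNT (0.80 ± 0.45; limma, adjusted p = 0.256), a log2 difference that was 0.42 without SCNT replicate 2.

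Not all processome genes were higher in SCNT. UTP11, the most abundant small subunit factor, stood at 242 and 195 FPKM in IVF, against 196 and 134 FPKM in SCNT (−0.42 ± 0.40; limma, adjusted p = 0.502), and its log2 difference was −0.15 without SCNT replicate 2. NOL7 was at 2.95 and 3.38 FPKM in IVF, against 2.82 and 3.33 FPKM in SCNT (−0.03 ± 0.42; limma, adjusted p = 0.971). The groups overlapped for these genes, and also for UTP18, UTP20 and UTP6. The lowest small subunit members were RRP7A, which was not tested, at 0.171 and 0.516 FPKM in IVF, against 0.827 and 1.10 FPKM in SCNT, and NOP9, at 0.220 and 0.123 FPKM and 1.90 and 1.53 FPKM. NOP9, from 13 and 8 reads in IVF, passed the filter through SCNT alone and did not pass the test (1.21 ± 0.32 SE, limma, adjusted p = 0.0626).

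The 5 snoRNP proteins showed unlike levels within the same particle, and none of them passed (2 at an unadjusted p under 0.05). FBL encodes fibrillarin, the methyltransferase of box C/D snoRNPs. It stood at 2.35 and 1.99 FPKM in IVF, against 8.92 and 17.1 FPKM in SCNT, a log2 difference of 2.08 ± 0.49 (SE) that just missed the threshold (limma, adjusted p = 0.0527). Its partner NOP56 was at 12.1 and 7.07 FPKM in IVF, against 17.2 and 48.1 FPKM in SCNT (1.54 ± 0.56; limma, adjusted p = 0.111). For both genes the SCNT values lay above the IVF values, and without SCNT replicate 2 the log2 difference was 1.65 for FBL and 0.82 for NOP56.

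NOP58, the other core protein of the same particle and a paralog of NOP56, was at 117 and 78.9 FPKM in IVF, against 86.9 and 48.2 FPKM in SCNT. These groups overlapped, and the log2 difference was −0.56 ± 0.45 (limma, adjusted p = 0.423) and −0.14 without SCNT replicate 2. Per length, NOP58 messenger RNA was 9.69 and 11.2 times that of NOP56 in the IVF libraries, 5.06 times in SCNT replicate 1 and 1.002 times in SCNT replicate 2. Against FBL the ratio was 49.7 and 39.7 in IVF and 9.74 and 2.82 in SCNT. Both ratios were thus lower in each SCNT library than in either IVF library; with 2 libraries against 2 an exact permutation test cannot go below p = 0.333, so none is given.

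In the box H/ACA particle, DKC1, the gene of the pseudouridine synthase dyskerin, stood at 57.1 and 60.0 FPKM in IVF, against 85.4 and 146 FPKM in SCNT. The groups did not overlap (0.92 ± 0.42; limma, adjusted p = 0.176), and the log2 difference was 0.54 without SCNT replicate 2. NOP10, a small core protein of the particle, was at 27.3 and 13.3 FPKM in IVF, against 17.2 and 40.9 FPKM in SCNT, with overlap (0.46 ± 0.55; limma, adjusted p = 0.602); it was −0.14 on the log2 scale without SCNT replicate 2. The ratio of DKC1 to NOP10 overlapped between the groups, at 2.09 and 4.50 in IVF and 4.96 and 3.56 in SCNT.

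Among the 14 large subunit factors, 12 were tested, RRP1 and NOL12 rose and 10 did not pass. The called share was 16.7%, which rests on 2 genes, against 3.86% of all tested genes. Of the 12, 3 passed the filter through SCNT alone, NOL12 among them. Both SCNT libraries exceeded both IVF libraries for 10 of the 14, against 36.1% of all genes of the table. The PeBoW complex, needed to mature large subunit RNA, was low in IVF for each of its subunits. PES1 (pescadillo) stood at 1.10 and 1.71 FPKM in IVF, against 3.04 and 11.6 FPKM in SCNT (1.58 ± 0.58; limma, adjusted p = 0.113), and its log2 difference was 0.76 without SCNT replicate 2. WDR12 was at 1.41 and 0.250 FPKM in IVF, against 2.48 and 2.60 FPKM in SCNT (1.03 ± 0.43; limma, adjusted p = 0.144).

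BOP1, the scaffold of PeBoW, was too low to be tested. It stood at 0.200 and 0.0139 FPKM in IVF, from 13 reads and 1 read, and at 0.372 and 3.24 FPKM in SCNT, from 25 and 219 reads. The counting intervals of IVF replicate 1 (6.9 to 22.2 reads) and SCNT replicate 1 (16.2 to 36.9 reads) met, so only SCNT replicate 2 stood clear of both IVF libraries. All 3 PeBoW genes had both SCNT values above both IVF values, against 36.1% of all genes of the table. For BOP1 this includes the replicate 1 counts whose intervals met, and neither of the 2 tested genes passed.

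NOP2, which encodes a ribosomal RNA cytosine methyltransferase, was at 0.744 and 0.725 FPKM in IVF, against 3.40 and 6.83 FPKM in SCNT (1.76 ± 0.44; limma, adjusted p = 0.0580). RRS1, which helps bring a small ribosomal RNA into the large subunit, was at 0.667 and 0.889 FPKM in IVF, against 2.24 and 6.34 FPKM in SCNT (1.46 ± 0.48; limma, adjusted p = 0.0900). Both passed the filter through SCNT alone, so their groups could not overlap.

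Other large subunit factors were abundant and had no common direction. NIP7, a small precursor RNA processing factor, stood at 89.0 and 77.4 FPKM in IVF, at 154 FPKM in SCNT replicate 1 and at 37.4 FPKM in SCNT replicate 2. The SCNT libraries thus lay on both sides of the IVF pair (−0.12 ± 0.62; limma, adjusted p = 0.918), and the log2 difference was 0.89 without SCNT replicate 2. NOL8 was at 49.7 and 51.2 FPKM in IVF and 52.1 FPKM in SCNT replicate 1, and at 13.0 FPKM in SCNT replicate 2 (−0.92 ± 0.61; limma, adjusted p = 0.330). Without SCNT replicate 2 its log2 difference was 0.04, so the lower SCNT mean came from that library. RRP8, a methyltransferase gene of the group, was not tested; its FPKM is divided by a recovered length of 12072 bases, the longest of all members.

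Nucleophosmin and nucleolin, the abundant chaperone-like proteins of the nucleolus, did not pass (0 of 2 at an unadjusted p under 0.05 in limma). NPM1 stood at 537 and 536 FPKM in IVF, against 435 and 265 FPKM in SCNT, and both SCNT values lay below both IVF values (−0.66 ± 0.41; limma, adjusted p = 0.298); the log2 difference was −0.30 without SCNT replicate 2. NCL overlapped, at 176 and 162 FPKM in IVF, against 221 and 155 FPKM in SCNT (0.13 ± 0.39; limma, adjusted p = 0.844), with a log2 difference of 0.39 without SCNT replicate 2 and −0.36 after median centring. NPM1 ranked 93rd and 86th of all entries in the IVF libraries and 110th and 228th in the SCNT libraries.

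Of the name matches with no ribosome role assigned, NOL4 was at 5.41 and 7.39 FPKM in IVF, against 3.92 and 3.63 FPKM in SCNT (−0.62 ± 0.45; limma, adjusted p = 0.370). NOL4L had both SCNT values above both IVF values, and NOL3 was not tested. Factors that the table lists under older symbols were DIEXF (now UTP25), at 3.23 and 2.91 FPKM in IVF, against 5.40 and 12.1 FPKM in SCNT, and GLTSCR2 (now NOP53), at 0.0725 and 0.115 FPKM and 0.650 and 2.71 FPKM. For both, the SCNT values lay above the IVF values; the 1 that was tested, DIEXF, did not pass.

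From 1 FPKM upwards, the difference was smaller at higher mean level over the 4 libraries. Below 1 FPKM, 4 of 5 members had both SCNT values above both IVF values, against 31.7% of 10072 genes, with a median log2 difference of 0.56 against 0.07. Of 16 members with a mean from 1 to under 10 FPKM, 14 had both SCNT values above both IVF values (87.5%), against 53.1% of the 5675 genes of the table in that range. Of 11 members from 10 to under 50 FPKM it was 9 (81.8%), against 43.0% of 3024 genes. Of the 13 members at 50 FPKM or more it was 3 (23.1%), against 31.7% of 1518 genes. Median log2 differences in the 3 upper ranges were 1.54, 0.87 and 0.11 for members, and 0.56, 0.30 and −0.02 for all genes.

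**Figure D3:**
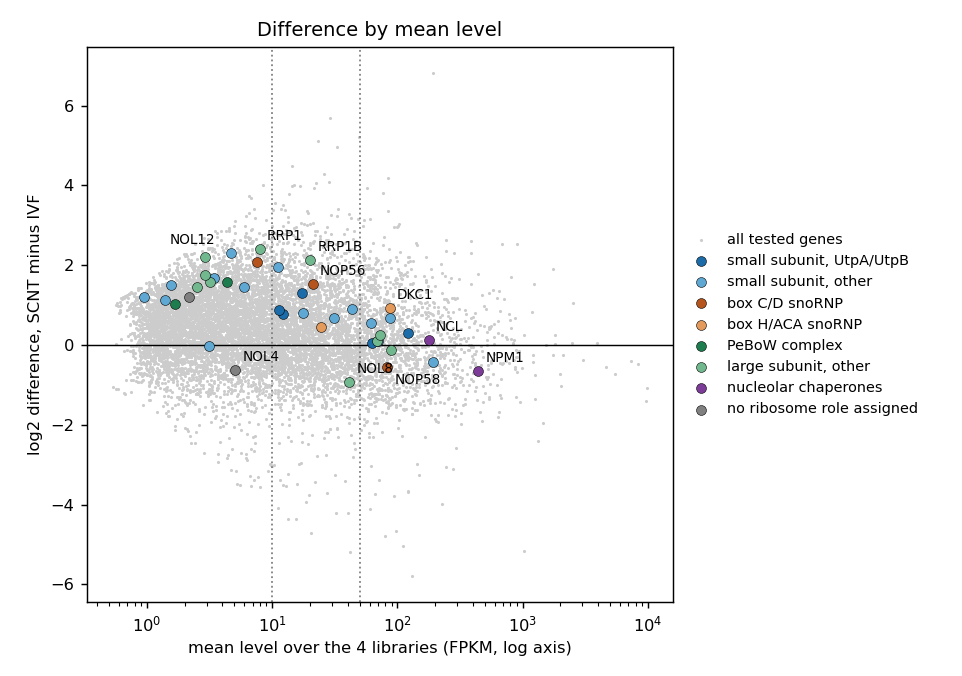
Log2 difference (SCNT minus IVF) against mean level over the 4 libraries (FPKM, log axis) for all tested genes in grey and the 41 tested members in colour; dotted lines mark 10 and 50 FPKM. Members to the left lie mostly above 0 and reach 2.40, and the most abundant member, NPM1, lies at −0.66.

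The SCNT libraries differed from each other more than the IVF libraries did. The median absolute difference between replicates on the log2 scale was 0.76 in SCNT and 0.24 in IVF for the tested members, and 0.63 and 0.30 for all tested genes. Of the 45 members, 28 were higher in SCNT replicate 2 than in replicate 1, and 17 lower. This split went with level: among the 16 members from 1 to under 10 FPKM, 15 were higher in replicate 2, and among the 13 at 50 FPKM or more, 12 were lower there. DKC1 was the exception among the 13, and NOL4 among the 16. Over all genes of the table, SCNT replicate 2 was below replicate 1 for 30.9% in the lower range and 54.2% in the upper range.

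Set against the IVF pair, SCNT replicate 1 was above both IVF libraries for 38 of the 45 members and below both for 3, against 45.9% and 18.7% of all genes of the table. SCNT replicate 2 was above both for 32 and below both for 11, against 54% and 18.8% of all genes. The median log2 distance of the tested members from the IVF mean was 0.82 in SCNT replicate 1 and 1.06 in SCNT replicate 2, against 0.33 and 0.51 for all tested genes.

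**Figure D4:**
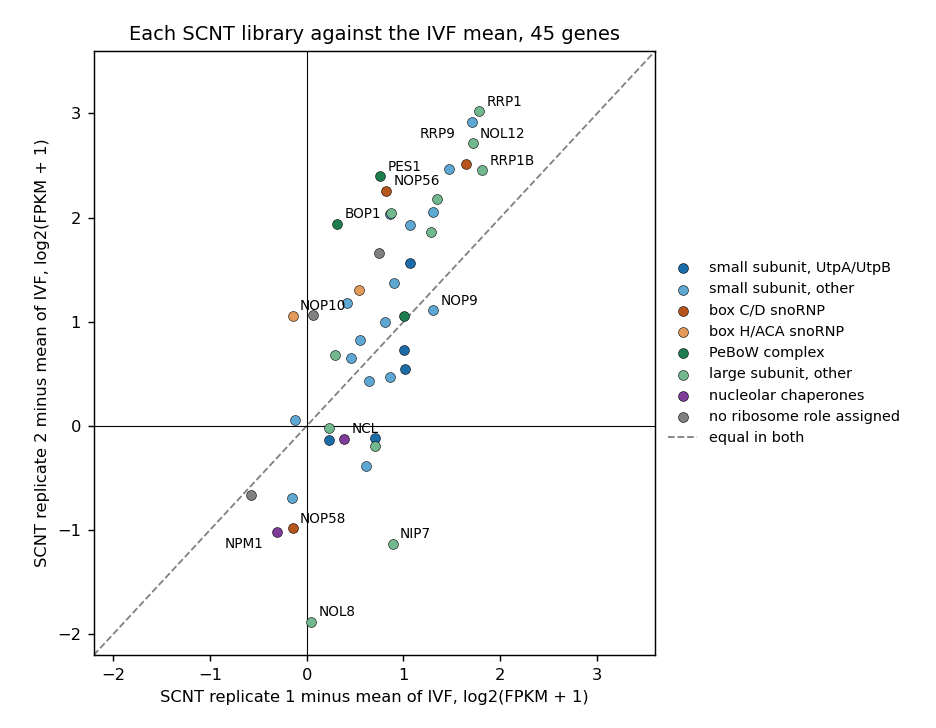
Each of the 45 genes by its distance from the IVF mean in SCNT replicate 1 (x axis) and in SCNT replicate 2 (y axis), both on the log2(FPKM + 1) scale, with the dashed line where the libraries are equal. RRP1, RRP9 and NOL12 are high in both and higher in replicate 2, whereas NIP7 lies above 0 in replicate 1 and below 0 in replicate 2, and NOL8 is near 0 in replicate 1 and lowest in replicate 2.

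Other genes of the pathway were taken from 6 lists, 113 names in all, of which 110 were found and 102 tested. Of these, 5 rose, 1 fell and 96 did not pass, with a median log2 difference of 0.77. The called share was 5.88%, against 3.86% of all tested genes, whose median was 0.39, and 13 of the 102 passed the filter through the SCNT libraries alone. EMG1, a methyltransferase of small subunit RNA, rose from 4.89 ± 0.87 to 30.9 ± 12.3 FPKM (SD, n = 2; limma, adjusted p = 0.0417). It was the only gene that passed among 28 other small subunit factors. FTSJ3, a methyltransferase of ribosomal RNA processing, rose from 0.649 ± 0.123 to 4.86 ± 1.02 FPKM, alone among 25 other large subunit factors tested (limma, adjusted p = 0.0484). FTSJ3 is one of the 13, at under 1 FPKM in both IVF libraries, and so had to differ in level between the groups.

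ZNF622, whose yeast counterpart Rei1 acts on large subunits in the cytoplasm, rose from 2.19 ± 0.09 to 17.2 ± 8.5 FPKM among 10 export and cytoplasmic maturation genes (SD, n = 2; limma, adjusted p = 0.0445). RUVBL2, an ATPase that helps to assemble snoRNPs among other complexes, rose from 2.43 ± 0.09 to 22.1 ± 15.8 FPKM among 12 tested snoRNP and assembly factors (limma, adjusted p = 0.0496). Without SCNT replicate 2, ZNF622 and RUVBL2 did not pass (limma, adjusted p = 0.0535 and 0.0612). None of 14 genes of RNA polymerase I, which makes the ribosomal RNA precursor, passed in limma (6 at an unadjusted p under 0.05). Of the 6, 5 were higher and 1 lower, against 25.4% and 5.63% of all tested genes. The lower one, TAF1D, was at 40.9 and 20.6 FPKM in IVF, against 15.2 and 3.97 FPKM in SCNT. Its log2 difference was −1.74 ± 0.63 (limma, adjusted p = 0.108). POLR1C had the largest difference there, with 2.84 and 1.43 FPKM in IVF, against 4.69 and 24.7 FPKM in SCNT (1.98 ± 0.70; limma, adjusted p = 0.105), and its log2 difference was 0.90 without SCNT replicate 2.

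The RNA exosome, which trims the ends of precursor RNAs, held genes that moved in opposite directions among its 13 tested. EXOSC1, a cap subunit, stood at 6.76 and 2.74 FPKM in IVF, against 26.7 and 54.3 FPKM in SCNT and rose by 2.86 ± 0.55 (SE; limma, adjusted p = 0.0391). C1D, an exosome-associated protein, stood at 86.0 and 31.1 FPKM in IVF, against 4.65 and 4.43 FPKM in SCNT and fell by 3.25 ± 0.54 (SE) on the log2 scale (limma, adjusted p = 0.0292). The C1D call was kept in 10 of 13 alternatives and that of EXOSC1 in 8 of 13. Of the 6 calls in these lists, C1D and EXOSC1 alone were kept after median centring, EXOSC1 alone without IVF replicate 1, and C1D alone without IVF replicate 2 or after quantile normalization. MYC, MYCN, MYCL and their partner MAX, regulators of ribosome production in other mammals, did not pass (2 of 4 at an unadjusted p under 0.05 in limma).

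**Figure D5:**
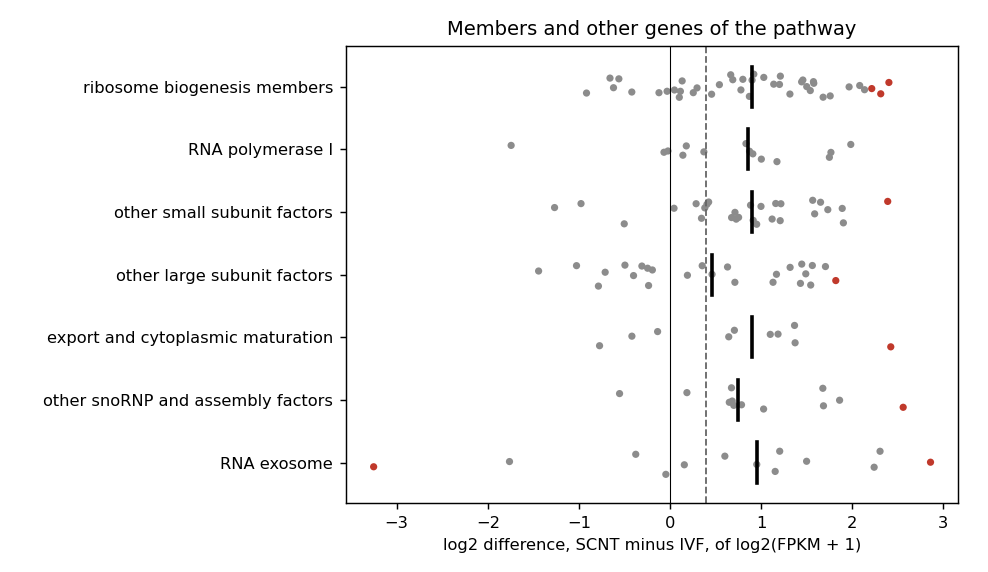
Log2 difference (SCNT minus IVF) of each tested gene in the ribosome biogenesis set and in the 6 lists of other pathway genes; red points passed, black bars are medians and the dashed line is the median of all tested genes. Medians lie between 0.46 for other large subunit factors and 0.95 for the exosome, with 0.90 for the ribosome biogenesis set, and C1D at −3.25 is the only gene that passed to the left.

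Of the 17 fibroblast markers, 9 were tested, and TIMP1 and TAGLN rose (limma, adjusted p = 0.0223 and 0.0417). The called share was 22.2%, which rests on 2 genes, against 3.86% of all tested genes. TIMP1 and TAGLN were among 3 that passed the filter through SCNT alone and so had to be higher there. At an unadjusted p under 0.05 in limma, 4 were higher and 1 lower, against 25.4% and 5.63% of all tested genes. The groups were separate for 5 tested markers higher in SCNT and 2 lower, DCN and FN1. DCN was at 94.3 and 85.5 FPKM in IVF, against 33.9 and 39.5 FPKM in SCNT (limma, adjusted p = 0.0776). The summed level of the 17 markers was 134 and 123 FPKM in IVF, against 101 and 104 FPKM in SCNT. In each IVF library 6 markers reached 1 FPKM, against 9 and 10 in the SCNT libraries. COL5A1, COL6A1 and S100A4 were listed at 0 in both IVF libraries, and COL5A1 and COL6A1 also in SCNT replicate 2. The 8 cumulus and granulosa markers found summed to 42.0 and 51.2 FPKM in IVF, against 21.2 and 35.7 FPKM in SCNT, and 0 of 3 tested passed (0 at an unadjusted p under 0.05 in limma). The part of fibroblasts, cumulus and granulosa cells in the levels of the ribosome biogenesis genes was not tested. Of the 8 oocyte and early embryo markers, all were tested, KHDC3L rose (limma, adjusted p = 0.0425) and 7 did not pass. The called share was 12.5%, which rests on 1 gene, against 3.86% of all tested genes. Of the 8, 1 passed the filter through SCNT alone. At an unadjusted p under 0.05 in limma, 4 were higher and 0 lower, against 25.4% and 5.63% of all tested genes. The groups were separate for 6 markers higher in SCNT and for 1 lower, ZAR1. Among all tested genes these shares were 46.9% and 17.1%.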

How the data were processed

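The authors deposited FPKM values per gene and library; fastp, HTSeq and HISAT2 2.2.1 appear in the submitters' processing notes, with no role stated. For the genome build, annotation, strand setting and multi-mapping rule: not given in the sources used here. The 3 lncRNA tables were not used. Scaling totals were recovered from ratios between low FPKM values and from RefSeq genes under 1500 bases, of which 655 of 959 allowed the same total within 100 reads; reads per member are the smallest whole numbers within 0.02 read that give a whole gene length. Groups were compared with limma 3.58.1 in R 4.3.3 (lmFit, eBayes with a variance trend) on log2(FPKM + 1), keeping genes that reached 1 FPKM in 2 or more of the libraries, with Benjamini-Hochberg adjustment over all tested genes. The script was tested on simulated data. In Smart-seq2 data without molecular identifiers, copies inflate read numbers. Members, role groups, pathway lists and markers were chosen with earlier results of these data known. The genes described singly were those that passed, the 8 largest differences in each direction (7 were lower), the 5 highest means, named core subunits, and, per pathway list, the called genes and the largest difference; all others, such as UTP4, NOP9 and RRP7A, were added after their values were seen. RefSeq (ARS1.2) gave gene type and order.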

Additional observations from a re-analysis of the deposited data

How the results depend on the processing

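With a pseudocount of 0.1 or without the variance trend, counts of calls stayed within 1.5 times, except that the trend's absence left 0 small subunit factors. Calls over all genes, 398 as reported, were 9 with a pseudocount of 5, 0 with no filter (3661 at an unadjusted p under 0.05 in limma), 133 with a filter at 5 FPKM, 1327 after rescaling and 1924 with a replicate block, and ranged from 114 to 3384 when single libraries were left out. Ribosome biogenesis calls were 0 with a pseudocount of 5, no filter, a 5 FPKM filter or quantile normalization (19, 14, 7 and 13 unadjusted in limma), 1 after centring, 11 after rescaling, 14 with the block, and 0 to 17 without single libraries. Small subunit calls were 0 under those 4 settings and after centring, 5 after rescaling, 6 with the block, and 0 to 5 without single libraries. Large subunit calls were 0 under the 4 settings, 1 after centring, 5 after rescaling, 7 with the block, and 0 to 6 without single libraries. The snoRNP calls were 1 after rescaling, 1 with the block, and 0 to 4 without single libraries. Other pathway calls were 0 with a pseudocount of 5 or no filter, 2 with the 5 FPKM filter, 2 after centring, 22 after rescaling, 1 after quantile normalization, 34 with the block, and 1 to 46 without single libraries. The member median was 0.59 with a pseudocount of 5, 0.60 with the 5 FPKM filter, 0.41 after centring and 0.56 after quantile normalization. The replicate numbers are not known to pair libraries: replicate differences of IVF and SCNT correlated at 0.12 across genes. Log2 differences changed sign after centring for 7 members, among them NCL (−0.36), NOP10 (−0.037) and UTP6 (−0.20) and also NOP16, RRP15, UTP18 and UTP20. Differences ranged, when single libraries were left out, from −0.12 to 0.39 for NCL, −1.13 to 0.89 for NIP7, −0.12 to 0.059 for NOL7, −1.88 to 0.045 for NOL8, −0.14 to 1.06 for NOP10 and −0.11 to 0.70 for UTP6. The cause of these changes was not tested. The count of 30 members with SCNT above IVF in every library ranged from 24 to 38 over 6 settings chosen after seeing the data. Members under 50 reads in IVF, such as RRP9, NOL12 and BOP1, are limited by depth.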
